A study of Mus musculus with 16 samples.

Results

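Desmosomes are junctions that rivet the keratin filaments of one epidermal cell to those of its neighbour. Desmosomal cadherins, the desmogleins and desmocollins, span the membrane and bind their counterparts on the next cell. Inside the cell they hold the armadillo proteins plakoglobin and the plakophilins, which in turn bind desmoplakin, the plakin that carries the keratin filaments. In the epidermis the make-up of desmosomes changes between the basal and the outer layers, and several desmosomal genes are mutated in skin blistering and hair disorders.

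The 9 desmosome genes described here are Dsp (desmoplakin), Jup (plakoglobin), Pkp1 and Pkp3 (plakophilins), Dsg2 and Dsg3 (desmogleins), Dsc2 and Dsc3 (desmocollins) and Perp, a small membrane protein of epidermal desmosomes and a target of p63. They were chosen by name and are 9 of the 22612 genes in the count tables, each read through the transcript with the most ribosome footprints. All 9 averaged 1 count or more per library in RNA-seq and in ribosome footprinting (Ribo-seq), so none was lost to the filter on low counts.

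Epidermal cells of C57BL/6J mice were grown for 2 weeks as 3D–3C organoids, a culture in Matrigel in which hair follicle stem cells (HFSCs) and their progeny reach a balance. Both sorted cell types are integrin α6+, the CD34+ cells being the HFSCs and the CD34- cells the progenitors. The organoids were left untreated or received N1-acetylspermidine (N1-AcSpd), an acetylated polyamine, for the last 72 h, and the labels name no transgene or engineered allele. The study investigated what polyamines do in the fate decisions of stem cells. Its footprinting compared what the 2 cell types translate, without and with N1-AcSpd. RNA-seq and Ribo-seq libraries came from the same lysates, which gave 4 groups per assay, 2 libraries per group and 16 libraries in all. The 2 libraries of a group came from different donor mice, and the same 2 mice gave all 4 groups. The methods give mice of both sexes at postnatal ages in telogen, the resting phase of the hair cycle. No age is tied to a sample. The p-values of the main tests rest on the spread within groups, pooled over the groups, without pairing samples by mouse. Averaged comparisons take libraries of the same mouse as independent, so their p-values still stand for only 2 mice.

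RNA-seq libraries held between 21612795 and 31524062 counts on the kept transcripts, and Ribo-seq libraries between 34475 and 268052 footprints. The sort marker checked the labels: Cd34 was between 2.35 and 5.36 CPM (counts scaled to a library of 1000000) in the progenitor RNA-seq libraries and between 67.4 and 89.9 CPM in the HFSC libraries, while Itga6, the integrin α6 gene, was at 689 CPM or more in all 8. Markers of other cell types were low, with summed levels of at most 13.6 CPM for fibroblasts, 13.8 CPM for melanocytes, 3.22 CPM for immune cells and 2.55 CPM for endothelial cells. The fibroblast maximum stood apart: the 2 treated progenitor libraries were at 1.45 and 13.6 CPM, and the other groups reached at most 5.54 CPM. Lum, Tyr, Ptprc, Cd3e, Cd207, Lyz2, Cdh5 and Emcn had at most 3 counts in every library. The 12 late differentiation genes moved with both factors. Their summed level was 678 to 681 CPM in untreated progenitors, 332 to 436 CPM in untreated HFSCs, 1319 to 1539 CPM in treated progenitors and 529 to 642 CPM in treated HFSCs, and their part in the results below was not tested. In the treated HFSC RNA-seq libraries the difference between the 2 mice ran against that of the other 3 groups, so their mouse numbers may be exchanged. This bears on fits that use the mouse and on ratios of the assays within those 2 lysates. Several such values are also given with the numbers exchanged, an alternative chosen after seeing the data. It was picked because it aligns the mouse differences in these same counts. That choice by itself favours smaller p-values in fits that use the mouse, so they are no independent support.

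The tables count Dsp, which has the longest coding region of the 9 genes, in transcripts that differ by a single coding stretch. On GRCm38 it lies at chr13:38151294-38198577 on the + strand (ENSMUSG00000054889), and the kept transcript Dsp-201 (ENSMUST00000124830) has 24 coding exons and 2883 codons. The other counted transcript, Dsp-202, leaves coding exon 23 early and so lacks 1797 bases, or 599 codons, at chr13:38191859-38193655. They match the long and short forms known as desmoplakin I and desmoplakin II, which differ in the length of the central rod. The sequences on either side of that switch are shown because they mark where the part read only in Dsp-201 begins. Both are from the + strand of GRCm38.p6, 5′ to 3′, and the capitals mark the GT with which the Dsp-202 intron starts.
Last 30 bases shared by Dsp-201 and Dsp-202, chr13:38191829-38191858: aagagagagtatgaaaatgagctggcaaag
First 30 bases of Dsp-201 alone, chr13:38191859-38191888: GTaagaaaccactataatgaggagatgagt

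The part that only Dsp-201 has makes up 20.8% of its coding length but held fewer of its counts. In RNA-seq it took 11.1% of the Dsp counts over all libraries, with a range from 10.1% to 11.4%. The lowest share was that of treated progenitors of mouse 2, and the next lowest was 11.07%, in untreated progenitors of mouse 2. Per base, the part was read at 0.476 times the density of the rest of the coding region. In Ribo-seq 254 of 2114 Dsp footprints fell there, which is 12.0% (exact binomial 95% interval 10.7% to 13.5%). Single Ribo-seq libraries gave 9.09% to 17.8%, and the widest interval, that of untreated progenitors of mouse 1, ran from 11.7% to 25.5% on 129 footprints. The Ribo-seq interval over all libraries includes the RNA-seq share, and the libraries of both cell types and both treatments overlapped in each assay. Reads without molecular identifiers are not independent molecules, so these intervals cover counting error only, and whether coverage is even along the message was not tested.

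**Figure D1:**
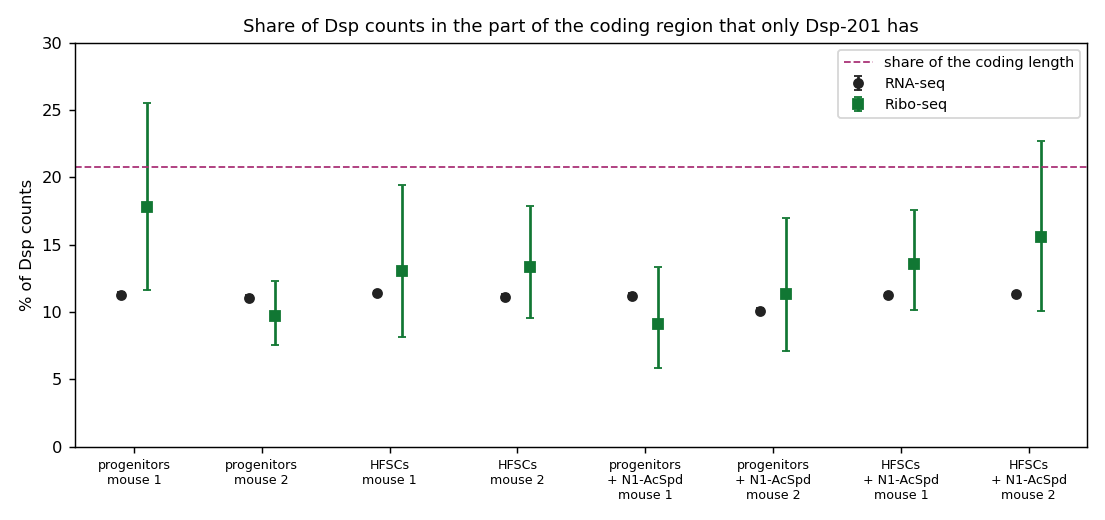
Share of Dsp counts in the coding part that only Dsp-201 has (vertical axis, percent) in each RNA-seq (circles) and Ribo-seq (squares) library, with exact binomial 95% intervals. RNA-seq shares lie between 10.1% and 11.4%, all below the 20.8% that the part takes of the coding length (dashed line), and the Ribo-seq shares scatter around them from 9.09% to 17.8%.

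The 9 genes differed widely in level. Levels between genes are given as coding TPM, counts per coding base scaled to a common sum, because the counts cover the coding region: of 5926 transcript pairs with the same coding region and different exons, 5907 had the same RNA-seq count. Perp was highest with a median of 1532 TPM (range 1346 to 1737) and ranked 109th of 14163 genes. Pkp1 at 552, Dsp at 494 and Jup at 442 TPM followed, with overlapping ranges from 363 to 631 TPM. Dsc3 at 268, Dsg3 at 226 and Pkp3 at 210 TPM formed the next step. The range of Dsg3 overlapped with those of Dsc3 and Pkp3, while Dsc3, from 239 to 292 TPM, and Pkp3, from 199 to 214 TPM, did not overlap. Dsg2, the desmoglein of simple epithelia and the basal layer, was at 18.1 TPM (14.4 to 20.8) and Dsc2 at 9.01 TPM (6.43 to 15.6), with ranges that also overlap. Dsg2 and Dsc2 were thus in the middle of all genes, at the 57.3th and 42.4th percentile, while the other 7 were above the 95th.

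Together the 9 genes took 0.810% to 1.03% of the RNA-seq counts and 0.855% to 1.11% of the footprints of a library. Dsp alone held 45.4% of the members' RNA-seq counts, and 26.3% of their footprints. In footprints the order changed. By medians, Perp remained highest at 1321 coding TPM, but Dsc3 at 563 and Jup at 542 came next, followed by Dsg3 at 461, Pkp1 at 441, Dsp at 265 and Pkp3 at 159 TPM. The ranges of Dsc3, Jup, Dsg3 and Pkp1, from 317 to 956 TPM, all overlapped, and that of Dsp overlapped with each of them except Jup. Dsc2 at 19.1 and Dsg2 at 17.3 TPM were again lowest, with overlapping ranges, and rested on only 52 and 58 footprints over 8 libraries.

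The ratio of footprint share to message share, in which length cancels, placed 3 of the 4 cadherins above the other members, the exception being Dsg2. Over all libraries its log2 was 1.25 for Dsc3 and 1.10 for Dsg3, compared with 0.73 for the median of the 2261 genes that averaged 10 or more counts in both assays. On the same measure Dsc2 lay between Dsc3 and Dsg3. Jup was at 0.44 and Dsg2 at 0.16. Perp at -0.04, Pkp1 at -0.25, Pkp3 at -0.41 and Dsp at -0.77 were below the lower quartile of 0.15 of those genes. Dsp stood at the 5.97th percentile and Dsc3 at the 74.1th. While 12256 genes averaged 10 or more RNA-seq counts, only 2261 averaged as many footprints, so the footprint minimum set this background. Genes with few footprints for their message are mostly left out of it, which tends to raise its median and quartiles. These percentiles and quartiles hold within that set and not for genes in general.

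The spread over lysates is given as a description, without a test. The Dsp ratio in the 8 lysates was between -0.94 and -0.44, with a median of -0.69 and an SD of 0.17. Dsg3 lay between 0.78 and 1.35 and Dsc3 between 0.72 and 1.44, so that neither overlapped with Dsp. Within each lysate Dsp was below Jup, Dsg3, Dsc3 and Perp in 8 of 8, below Pkp3 in 7 and below Pkp1 in 6. Dsg3 exceeded Perp in 8 of 8 lysates by a median log2 difference of 1.23. Dsg3 exceeded Jup in 7 of 8, the exception being treated progenitors of mouse 1. Jup exceeded Pkp1 and Pkp3, the other armadillo proteins, in 8 of 8 lysates, by medians of 0.75 and 0.72. Pkp1 and Pkp3 did not separate, with Pkp1 higher in 5 of 8. With the treated HFSC RNA-seq libraries exchanged between the mice, the lowest Dsp ratio was -0.98 and the SD 0.19, Dsp was below Pkp1 in 7 of 8, Pkp1 exceeded Pkp3 in 4 and Perp in 2 instead of 1, and no other count of lysates between these pairs of members moved. The same exchange moved the highest Dsc3 ratio to 1.49 and the median difference of Dsg3 and Perp to 1.14. Dsc2, with 1 to 15 footprints in a library, ranged from 0.24 to 1.75, or to 1.65 with the exchange, and it exceeded Dsp in 8 of 8. Dsg2 had no footprint in untreated HFSCs of mouse 1, where 0 of 52386 footprints allows a share of up to 0.00573%. The ratio over all libraries weights deep libraries more, and untreated progenitors of mouse 2 alone gave 268052 footprints. Without any single lysate the Dsp ratio was between -0.82 and -0.73.

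**Figure D2:**
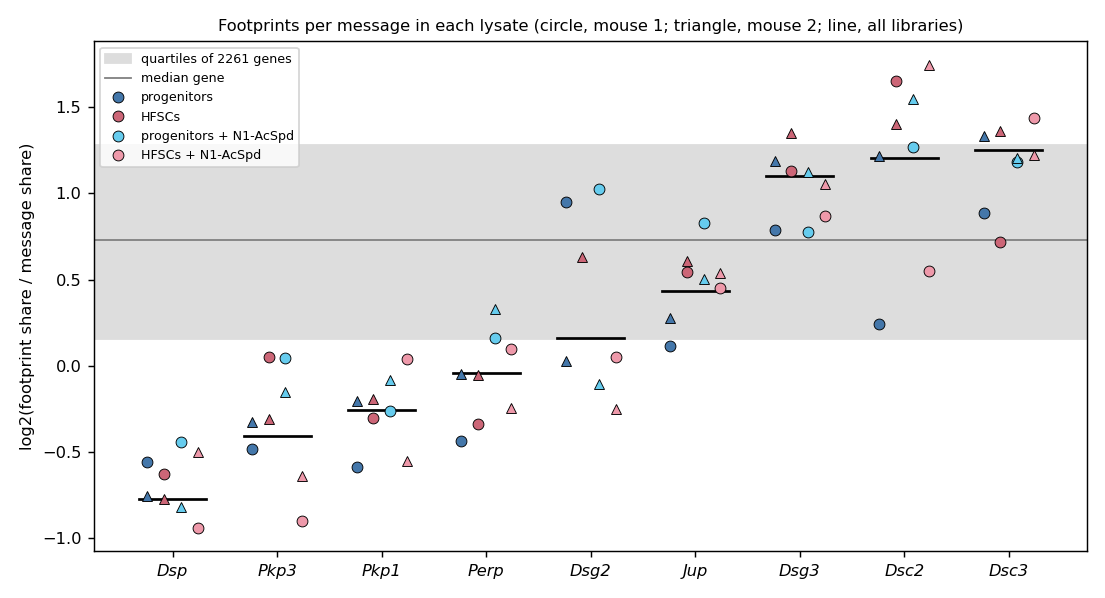
Log2 ratio of a gene's share of footprints to its share of RNA-seq counts (vertical axis) in each of 8 lysates, coloured by group, with a black line for all libraries together; the grey band runs from the lower quartile of 0.15 to the upper quartile of 1.28 of 2261 genes and the grey line is their median of 0.73. The 8 Dsp values lie at or below -0.44 and the 8 Dsg3 values at or above 0.78. The 2261 genes are those averaging 10 or more counts in both assays, a set decided by the footprint minimum.

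The first comparison asked whether HFSCs and progenitors differ in desmosome messages. Averaged over treatments, Jup fell in HFSCs, to 0.760 times its progenitor level, and it was the only one of the 9 genes past an adjusted p of 0.05 (quasi-likelihood test of edgeR, p-values adjusted over all genes by Benjamini-Hochberg). Among all 14224 genes tested, 556 or 3.91% passed, so 1 of 9 is a single call. At an unadjusted p under 0.05 there were 6 of the 9, 5 lower and 1 higher in HFSCs, beside 18.1% of all genes. The log2 differences of 8 of the 9 were below 0, with a median of -0.20 over the members and -0.01 over all genes. In bulk samples, fewer cells with a message and less message per cell cannot be told apart.

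Jup, at chr11:100370619-100397749 on the - strand, is shared by desmosomes and adherens junctions. It was at 1099 and 1110 CPM in untreated progenitors of mice 1 and 2, and at 833 and 893 CPM in untreated HFSCs. With N1-AcSpd it was at 1331 and 1135 CPM in progenitors and at 898 and 925 CPM in HFSCs. All 4 progenitor libraries were higher than all 4 HFSC libraries. The log2 difference was -0.40 (SE 0.08, edgeR adjusted p = 0.0290), and the adjusted p was 0.0383 with the mouse as a replicate block and 0.00262 with the numbers of treated HFSCs exchanged. With 1 library left out the log2 difference stayed between -0.44 and -0.34, but the adjusted p was above 0.05 for 7 of the 8 libraries, from 0.0671 to 0.123, the largest without untreated progenitors of mouse 1. Without treated progenitors of mouse 2 it was 0.0267. Within untreated cells the difference was -0.36 (adjusted p = 0.293) and within treated cells -0.44 (adjusted p = 0.152).

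Pkp1 and Dsc3 were the other members whose cell types did not overlap, which makes 3 of 9 with Jup, beside 9.52% of all genes. Pkp1, at chr1:135871395-135919207 on the - strand, encodes a plakophilin that enlarges desmosomes of the epidermis. It was at 1292 and 1280 CPM in untreated and 1389 and 1337 CPM in treated progenitors, against 1131 and 1072 CPM in untreated and 1153 and 1128 CPM in treated HFSCs. Its log2 difference was -0.24 (SE 0.07, edgeR adjusted p = 0.0920), and DESeq2, which called 6.68% of all genes here, gave an adjusted p of 0.0283. With the mouse as a block the edgeR adjusted p for Pkp1 was 0.0788, and 0.0199 with the numbers of treated HFSCs exchanged. Dsc3, the desmocollin of the basal epidermis, on chromosome 18, was between 740 and 815 CPM in progenitors and between 643 and 709 CPM in HFSCs. Its log2 difference was -0.18 (SE 0.07, edgeR adjusted p = 0.204).

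Among the other members the cell types overlapped. Dsp was at 4809 and 4362 CPM in untreated progenitors, 4154 and 3804 CPM in untreated HFSCs, 4293 and 5147 CPM in treated progenitors, and 4659 and 3341 CPM in treated HFSCs. The mice differed most in the treated HFSCs, and the log2 difference of -0.22 (SE 0.12) did not pass (edgeR adjusted p = 0.380). With 1 library left out it was between -0.35 and -0.10, the ends being without treated HFSCs of mouse 1 and of mouse 2. Perp, at chr10:18845020-18857073 on the + strand, had a log2 difference of -0.20 (SE 0.09, edgeR adjusted p = 0.269) over a range of 755 to 1014 CPM. Dsg3, the desmoglein of the basal layer and hair follicle sheath, was between 613 and 828 CPM and gave -0.15 (SE 0.10, adjusted p = 0.469). Pkp3, at chr7:141078218-141090510 on the + strand, varied least, from 496 to 552 CPM with a coefficient of variation of 3.26% over 8 libraries, and gave -0.06 (SE 0.07, adjusted p = 0.688). With 1 library left out the difference was between -0.28 and -0.12 for Perp, between -0.22 and -0.06 for Dsg3 and between -0.08 and -0.03 for Pkp3.

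Dsg2 had the one difference above 0. It was at 67.8, 67.2, 67.7 and 59.9 CPM in the HFSC libraries and at 52.5, 67.8, 49.0 and 53.5 CPM in the progenitor libraries. The untreated progenitors of mouse 2 were at the level of the highest HFSC libraries, and the other 3 progenitor libraries were below all HFSC libraries. The log2 difference was 0.24 (SE 0.10, edgeR adjusted p = 0.229), and 0.15 to 0.35 with 1 library left out. Dsc2, given by library below, had a difference of -0.46 (SE 0.12). Its adjusted p was 0.0793 in edgeR, 0.0408 in edgeR without a minimum count and 0.0235 in DESeq2. With the mouse as a block in edgeR it was 0.0818, and 0.00143 with the numbers of treated HFSCs exchanged.

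Within one treatment no member passed in the main edgeR fit, where 0.148% of genes passed between untreated cells and 0.745% between treated cells. With the mouse as a block and the numbers of treated HFSCs exchanged, members did pass between treated cells, Dsc2 among them (edgeR adjusted p = 0.00437). At an unadjusted p under 0.05 in the main fit the counts were 3 between untreated and 5 between treated cells, of the 9 genes, beside 9.58% and 11.2% of all genes. DESeq2 called 0 members between untreated cells, beside 1.88% of all genes, and 1, Jup, between treated cells, beside 2.65%.

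**Figure D3:**
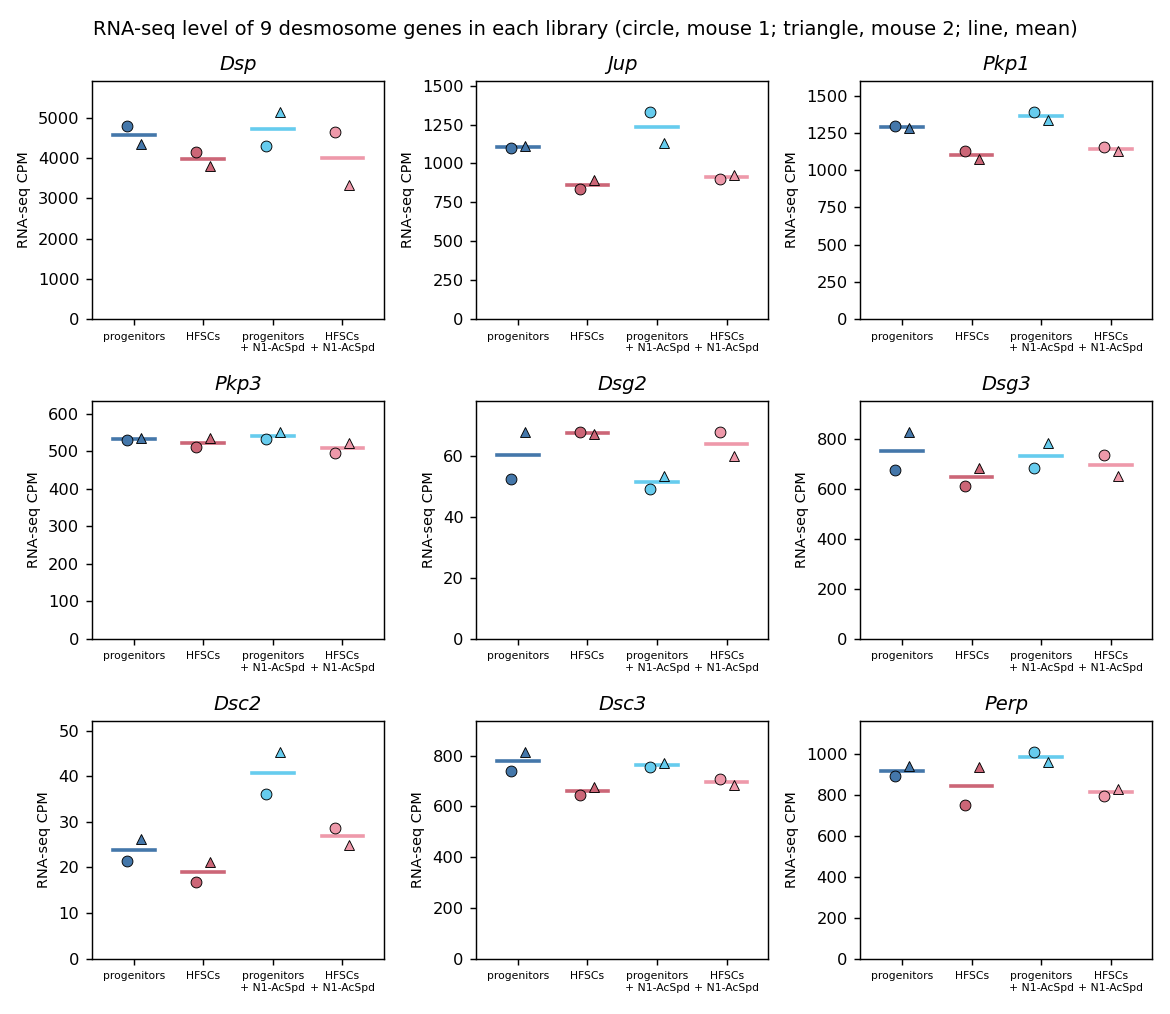
RNA-seq level (vertical axis, CPM, starting at 0) of the 9 genes in the 4 groups, with circles for mouse 1, triangles for mouse 2 and lines for group means. Jup, Pkp1 and Dsc3 are lower in all 4 HFSC libraries than in any progenitor library, and Dsc2 is higher with N1-AcSpd in both cell types.

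The second comparison asked what N1-AcSpd does to these messages. Dsc2 rose, to 1.56 times its untreated level averaged over cell types, and was the only one of the 9 genes past the threshold, beside 233 of all genes or 1.64%. The other 8 log2 differences lay between -0.16 for Dsg2 and 0.12 for Jup, which with 1 library left out were between -0.24 and -0.05 and between 0.06 and 0.18. The median over the 9 was 0.03, against -0.01 over all genes. Only Dsc2 was under an unadjusted p of 0.05, beside 15.6% of all genes, and in none of the 9 were the treated and untreated libraries apart when the cell types were pooled, beside 7.84% of all genes.

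Dsc2 encodes a desmocollin found in most tissues with desmosomes. In progenitors it was at 21.4 and 26.2 CPM untreated and at 36.2 and 45.4 CPM with N1-AcSpd. In HFSCs it was at 16.9 and 21.2 CPM untreated and at 28.7 and 25.0 CPM treated. In each cell type both treated libraries were above both untreated ones, while treated HFSCs of mouse 2 were below untreated progenitors of mouse 2. The log2 difference was 0.64 (SE 0.12, edgeR adjusted p = 0.0457). It was 0.78 in progenitors (adjusted p = 0.182), where 0.239% of genes passed, and 0.50 in HFSCs (adjusted p = 0.536), where 0% passed. The unadjusted p was under 0.05 for Dsc2 alone of the 9 in each cell type, beside 8.87% and 7.73% of all genes. DESeq2 called Dsc2 in progenitors (adjusted p = 0.0112), beside 1.22% of all genes, and no member in HFSCs, beside 0.879%. With the mouse as a block and the numbers of treated HFSCs exchanged, edgeR called Dsc2 in progenitors (adjusted p = 0.00253) and in HFSCs (adjusted p = 0.0362).

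The Dsc2 call stood close to its threshold. With the mouse as a replicate block the adjusted p was 0.0549, with counts summed over its transcripts 0.0696, and with any one of the 8 libraries left out 0.0645 to 0.169, the largest without untreated progenitors of mouse 1. The log2 difference stayed between 0.56 and 0.72 over these left-out libraries. With the mouse as a block and the numbers of treated HFSCs exchanged, edgeR gave an adjusted p of 4.16e-04, and DESeq2, which called 4.08% of all genes, gave 6.06e-04 without a block. Dsc2 and the summed late differentiation level given above were both higher with N1-AcSpd in each cell type and highest in treated progenitors. Their order differed between treated HFSCs and untreated progenitors. Dsc2 averaged 26.8 CPM in the former and 23.8 CPM in the latter, while the summed level was 529 to 642 CPM and 678 to 681 CPM. Their relation was not tested.

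Whether the effect of N1-AcSpd differs between cell types was tested as an interaction. In RNA-seq 0 members reached an unadjusted p of 0.05, beside 0.83% of all genes, and none was called by edgeR or DESeq2. For Dsc2 the difference of the 2 effects was -0.28 on the log2 scale (SE 0.25, edgeR adjusted p = 1), and for Jup -0.08 (SE 0.16, adjusted p = 1).

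Footprints gave wide errors. Between cell types all 9 log2 differences were below 0, from -0.40 for Dsc2 to -0.05 for Dsg3, with a median of -0.30 beside 0.00 over all genes. That of Dsc2 ran from -0.60 to 0.11 with 1 library left out, so its direction depends on the libraries used. None of the 9 passed in edgeR at an adjusted or unadjusted p, where 0.154% and 4.14% of the 8440 genes tested did, and DESeq2 called none. For Jup the footprint difference was -0.31 (SE 0.26), made up of 0.02 (SE 0.37) in untreated and -0.63 (SE 0.37) in treated cells, and it was between -0.41 and -0.12 with 1 library left out, nearest 0 without treated progenitors of mouse 1. Its footprint level was 1192 and 1344 CPM in untreated progenitors, 1215 and 1363 CPM in untreated HFSCs, 2358 and 1609 CPM in treated progenitors, and 1227 and 1341 CPM in treated HFSCs. Only the treated progenitors were apart from the rest. With N1-AcSpd, Dsc2 had a footprint difference of 0.57 (SE 0.64) on 1, 15, 3, 7, 7, 8, 6 and 5 footprints in the libraries of untreated progenitors, untreated HFSCs, treated progenitors and treated HFSCs, mouse 1 first. It was between 0.33 and 1.04 with 1 library left out, the ends being without treated HFSCs of mouse 2 and without untreated progenitors of mouse 2. No member passed in that comparison, where 0.0829% of genes passed and 4.85% had an unadjusted p under 0.05. The standard errors of the footprint differences, 0.25 to 0.63 between cell types, were above the 0.07 to 0.12 of RNA-seq.

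**Figure D4:**
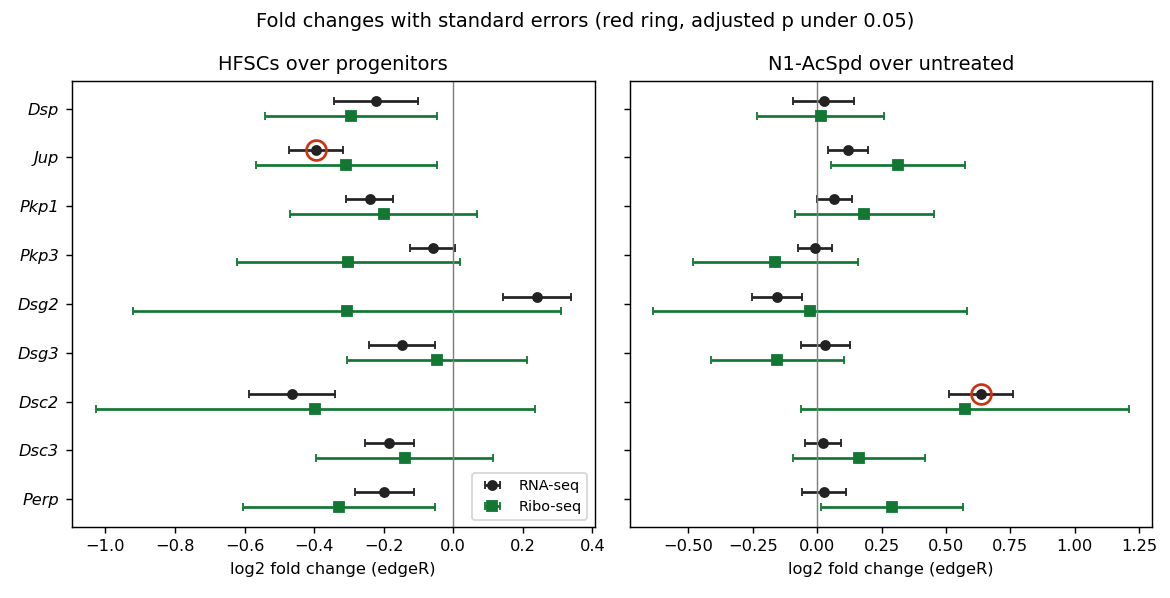
Log2 fold changes (horizontal axis) with standard errors of the 9 genes in RNA-seq (circles) and Ribo-seq (squares), HFSCs over progenitors on the left and N1-AcSpd over untreated on the right. Red rings mark the 2 values past the threshold, Jup at -0.40 and Dsc2 at 0.64, both in RNA-seq.

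Translational efficiency, the change in footprints beyond the change in message, was tested over all 16 libraries. No member and no gene passed in edgeR in either averaged comparison. DESeq2 called no member and 1 gene, with N1-AcSpd. No member had an unadjusted p under 0.05, beside 6.01% of 8439 genes between cell types and 7.35% with N1-AcSpd. The largest departures were -0.45 for Dsg2 (SE 0.51) between cell types and 0.23 for Perp (SE 0.23) with N1-AcSpd. Between treated cells Pkp3, with 38 and 20 footprints in HFSCs and 44 and 30 in progenitors, differed by -0.78 (SE 0.33, unadjusted p = 0.0267, edgeR adjusted p = 0.805), the only one of 9 at that level beside 6.08% of all genes.

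Of the rest of the desmosome family, Dsc1, Dsg1a, Dsg1b and Pkp2 held larger RNA-seq differences between cell types than any of the 9 genes, while Pkp4, Dsg1c and Dsg4 did not. Dsc1, Dsg1a and Dsg1b, cadherins of the outer epidermal layers, fell in HFSCs. Dsc1 was at 16.1 and 14.8 CPM in untreated progenitors and at 5.01 and 5.75 CPM in untreated HFSCs, and at 65.2 and 46.4 CPM in treated progenitors against 9.83 and 17.6 CPM in treated HFSCs. Its log2 difference averaged over treatments was -1.77 (SE 0.19, edgeR adjusted p = 0.00351). Dsg1b gave -1.44 (SE 0.14, adjusted p = 0.00228) and Dsg1a -1.59 (SE 0.23, adjusted p = 0.00984). N1-AcSpd raised Dsc1 by 1.61 (SE 0.19, adjusted p = 0.00891) and Dsg1b by 1.17 (SE 0.14, adjusted p = 0.00876), while Dsg1a was at 0.90 (SE 0.23, adjusted p = 0.106). Of 8 alternatives 5 left Dsg1a uncalled with N1-AcSpd, and DESeq2, edgeR without a minimum count and the block with exchanged mouse numbers called it, with adjusted p-values from 0.00373 to 0.154 over the 8. The Dsg1 genes are near-identical copies, so how reads were split among them is uncertain.

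These cadherins were highest in treated progenitors, as was the summed level of the late differentiation genes, and whether the 2 are related was not tested. Of the 12 late differentiation genes, 9 were lower in HFSCs and 6 were higher with N1-AcSpd past the threshold, beside 3.91% and 1.64% of all genes, with medians of -1.19 and 1.26. Pkp2, a plakophilin of simple epithelia, was at 2.91 to 10.4 CPM and gave -0.96 between cell types (SE 0.24, adjusted p = 0.0638). The same 3 alternatives called Pkp2, and its adjusted p was between 5.91e-04 and 0.0907 over the 8. Pkp4, of adherens junctions and desmosomes, was level at 124 to 141 CPM (0.09, SE 0.07, adjusted p = 0.523). Dsg1c and Dsg4 had at most 10 and 17 counts in an RNA-seq library and no footprint.

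**Figure D5:**
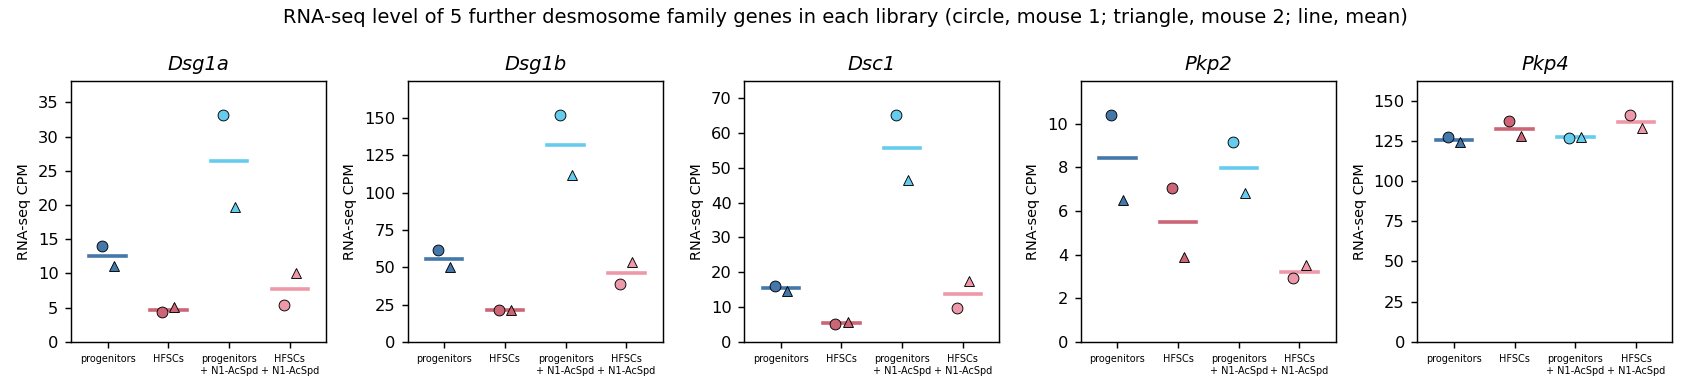
RNA-seq level (vertical axis, CPM, starting at 0) of 5 further family genes in the 4 groups, with circles for mouse 1, triangles for mouse 2 and lines for group means. Dsg1a, Dsg1b and Dsc1 are highest in the 2 treated progenitor libraries, at 65.2 and 46.4 CPM for Dsc1, whereas Pkp4 stays between 124 and 141 CPM.

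Other junction and filament genes were counted for comparison, from lists written with earlier results known. Beside them stand the shares of all genes called by edgeR, 3.91% between cell types and 1.64% with N1-AcSpd, and under an unadjusted p of 0.05, 18.1% and 15.6%. Between cell types, 2 of 5 further plakins and cross-linkers, 2 of 11 adherens junction genes, 2 of 10 tight junction genes and 1 of 6 gap junction genes were lower in HFSCs and none higher, with medians of -0.24, -0.12, -0.58 and -0.28. Of 9 epidermal keratins 4 were lower and 1, Krt15, a marker of HFSCs, was higher. Among 11 regulators of desmosome genes 2 were lower. Of 6 genes of HFSC sorting and identity 4 were higher. Itga6, also on that list, was lower in HFSCs without being called (-0.29, SE 0.08, edgeR adjusted p = 0.0778). Its HFSC libraries, at 689 to 847 CPM, were all below its progenitor libraries, at 932 to 983 CPM. None of the fibroblast, melanocyte, immune or endothelial markers was called by edgeR in either comparison, although 1 melanocyte gene had an unadjusted p under 0.05 between cell types, and 2 melanocyte genes and 1 endothelial gene did with N1-AcSpd. With N1-AcSpd, 1 tight junction gene, 1 gap junction gene, 1 regulator and 1 keratin were higher, and 1 keratin, Krt15, which is also on the HFSC list, was lower. No plakin or adherens junction gene was called with N1-AcSpd in edgeR, where 2 and 3 of them had an unadjusted p under 0.05.

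The members did not all vary together. Over the 8 RNA-seq libraries, 29 of their 36 pairwise correlations of log2 CPM were above 0, with a median Pearson r of 0.51. The highest was 0.94 for Jup and Pkp1 and the lowest -0.79 for Jup and Dsg2. Jup and Perp at 0.83 and Dsg3 and Dsc3 at 0.85 were also high. The libraries share cell type, treatment and mouse, so these values are descriptions without a p. The mean centred profile of the 9 genes was highest in treated progenitors, at 0.11 and 0.18, and lowest in untreated HFSCs of mouse 1, at -0.17. Among the 8746 genes averaging 10 CPM or more, the 5 most like it were Atp11a (r = 0.98), Nradd (0.97), Sdc1 (0.97), Ptpn13 (0.97) and Fbln2 (0.96), over 8 libraries.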

How the data were processed

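RNA-seq and Ribo-seq were compared in 16 libraries. The submitters' processing notes name STAR 2.7.3a, Bowtie 1.2.3, featureCounts and GRCm38.p5. Alignment was by STAR, after adapter trimming (flexbar) and a bowtie filter against structural RNAs. The values the authors deposited are raw read counts per Ensembl transcript, and how multi-mapping reads were treated is not given in the sources used here. Authors' tables of differential translation (fold changes and p-values) served only to pair identifiers with names.

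From 64026 transcripts, 1 per gene was kept (most footprints, then most RNA-seq counts). Coding regions came from GENCODE M21 (GRCm38), sequences from RefSeq's GRCm38.p6 genome. Counts with a mean of at least 1 were fitted with edgeR 4.0.16 in R 4.3.3 (TMM, 4 groups per assay, quasi-likelihood test, adjusted p under 0.05). CPM values are counts over TMM-scaled library sizes. Translational efficiency was the interaction of assay and contrast. Scripts were tested on simulated data. DESeq2 1.42.0, other scalings, filters, transcripts and left-out libraries were alternatives.

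Replicate numbers name the donor mice and so pair the samples as labelled, although those of the treated HFSC RNA-seq libraries may be exchanged. Mouse differences correlated between 0.35 and 0.65 among 3 RNA-seq groups, between -0.61 and -0.39 with treated HFSCs, and between 0.02 and 0.11 in Ribo-seq.

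Named were the 9 members, the other desmosome family genes, Cd34, Itga6 and Krt15, and the 5 genes of most similar profile. Outside that rule, markers of other cell types with at most 3 counts in every library are named, chosen after their values were seen. The 14 lists, of which the members are one, were chosen with earlier results of these data known.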

Additional observations from a re-analysis of the deposited data

How the results depend on the processing

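With the mouse as a replicate block, the number of desmosome genes called in RNA-seq between cell types averaged over treatments stayed at 1, and that with N1-AcSpd averaged over cell types went from 1 to 0. The block changed no other number of members called, and it moved the number of all genes called with N1-AcSpd from 233 to 135. After the data were seen, the block was repeated with the mouse numbers of treated HFSCs exchanged. It called 1950 genes between cell types and 1260 with N1-AcSpd, against 556 and 233 without a block, and 3 members between cell types, 2 between treated cells (903 of all genes), 1 with N1-AcSpd in progenitors (441) and 1 in HFSCs (269). DESeq2 called 3 members and 950 of all genes between cell types averaged over treatments, 1 and 377 between treated cells, and 1 and 174 with N1-AcSpd in progenitors. Without a minimum count the first of these was 2 members, beside 869 of 16045 genes. Counts summed over transcripts left 0 members called with N1-AcSpd averaged over cell types. At an unadjusted p under 0.05 there were 3 members between untreated cells, 5 between treated cells, 6 averaged over treatments, 1 with N1-AcSpd in progenitors, 1 in HFSCs and, in translational efficiency, 1 between treated cells. With 1 library left out, 0 to 1 members were called between cell types and 0 to 0 with N1-AcSpd averaged, and all genes called numbered 188 to 457 and 42 to 137. The N1-AcSpd difference of Pkp3 turned from below to above 0 with DESeq2 (0.0023), with RLE factors (0.0022) and without a minimum (0.0080). With 1 library left out it ran from -0.0162 to 0.0091 for Pkp3, from -0.0099 to 0.0663 for Dsc3, from -0.0370 to 0.1155 for Dsg3, from -0.1119 to 0.1453 for Dsp, from -0.0272 to 0.1099 for Perp and from -0.1247 to 0.4466 for Cd34, and the footprint difference of Dsc2 between cell types from -0.6036 to 0.1114. The causes were not tested. Dsg2 and Dsc2, with 58 and 52 footprints, are limited most by depth.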
